A study of Mus musculus with 6 samples.

Results

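The genes described here are 9 factors and markers of naive, resting T cells, namely Tcf7, Lef1, Satb1, Bach2, Foxo1, Foxo3, Foxp1, Dapl1 and Igfbp4. Members were all probe sets whose symbol in the platform annotation is exactly one of these names. This gave 32 of the 45101 probe sets in the table, for 8 of the 9 genes and of 18193 genes with a probe set of their own. No probe set carries the symbol Tcf7 in the annotation used here, so Tcf7 was not analysed. RNA came from 3 cultures of mouse T cells infected with the retrovirus pMIT-E47-ER and from 3 infected with the control pMIT-bHLH-ER. E47 is a transcription factor made from the Tcf3 gene, and the ER domain keeps the fused protein inactive until tamoxifen is added. Both groups were CD4+CD25- cells from pooled lymph nodes of C57BL/6 mice, stimulated through CD3 and CD28 with IL-2 and TGF-β1 for 2 days, infected on day 1, sorted as CD4+Thy1.1+ and then given 1 µM tamoxifen with IL-2 and the same stimulation for 6 hours. The samples came from 3 experiments with 1 E47 and 1 control sample each, whose mice were 7, 8 and 9 weeks old in experiments 1, 2 and 3 and pooled by 3, 3 and 4. Age and pool size therefore cannot be told apart from experiment. The cells were activated, infected cultures, not freshly isolated naive cells. The labels do not spell out which sequence the bHLH-ER control encodes.

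A naive T cell stays small and undivided until it meets antigen, and this resting state is held in place by transcription factors. TCF-1 (from Tcf7) and LEF1 bind DNA through an HMG box and can recruit β-catenin or Groucho/TLE corepressors. FOXO1 and FOXO3 are forkhead factors that activate genes for homing and survival of resting cells, and AKT, switched on by antigen and cytokine receptors, phosphorylates them and drives them out of the nucleus. The level of a Foxo mRNA is therefore not a measure of FOXO activity. FOXP1, another forkhead protein, maintains quiescence, SATB1 organises chromatin in developing T cells, and BACH2 represses effector programmes. E47 binds E-boxes, whose letters are CANNTG.

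The results turn on Dapl1, Foxo1 and Igfbp4, and the 250 bases before their annotated starts are shown to place the E-box and forkhead letters in them. The sequences are taken from RefSeq (GRCm38.p6) on the plus strand, 5′ to 3′, with matches to CANNTG and to the forkhead motif TGTTTAC (searched on both strands, hence also GTAAACA) in capitals. The windows are chr2:59484403-59484652 for Dapl1, chr3:52268087-52268336 for Foxo1 and chr11:99040994-99041243 for Igfbp4, each ending just before an annotated start of transcription.
Dapl1: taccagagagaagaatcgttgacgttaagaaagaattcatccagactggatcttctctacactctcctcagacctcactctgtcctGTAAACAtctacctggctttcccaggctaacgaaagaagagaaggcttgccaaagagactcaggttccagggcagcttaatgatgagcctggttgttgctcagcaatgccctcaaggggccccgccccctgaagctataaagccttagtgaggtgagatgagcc
Foxo1: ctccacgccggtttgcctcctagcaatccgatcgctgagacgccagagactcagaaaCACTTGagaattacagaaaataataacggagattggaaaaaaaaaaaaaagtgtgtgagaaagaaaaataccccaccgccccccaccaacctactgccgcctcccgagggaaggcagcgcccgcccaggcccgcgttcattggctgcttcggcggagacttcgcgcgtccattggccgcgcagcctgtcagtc
Igfbp4: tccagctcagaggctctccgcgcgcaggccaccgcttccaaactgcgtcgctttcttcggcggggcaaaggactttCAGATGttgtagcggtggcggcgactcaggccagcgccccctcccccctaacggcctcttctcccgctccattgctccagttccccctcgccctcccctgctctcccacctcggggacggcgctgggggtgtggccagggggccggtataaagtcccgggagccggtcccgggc
Foxo1 and Igfbp4 had 1 CANNTG match each, 193 and 174 bases before the start. Dapl1 had 0 such matches and 1 forkhead match. Of 32841 RefSeq windows of this length, 66.2% held CANNTG and 3.17% held the forkhead motif. All 9 members had a window, 19 in all because several genes have more than 1 start, and the Dapl1 window was the only one of the 19 with the forkhead motif. A match is a description of these letters and says nothing of binding.

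Lef1 and Foxo1 lie on chromosome 3, Dapl1 on 2, Bach2 on 4, Foxp1 on 6, Foxo3 on 10, Igfbp4 on 11 and Satb1 on 17. Values below are log2 of the deposited RMA intensity. They allow comparison of a probe set between arrays, not of 1 gene with another. Of the 32 probe sets 28 had a mean above the median of all probe sets, and the other 4 (Satb1 1439315_at, Foxo1 1456529_at, Foxo3 1450236_at and Foxp1 1443258_at) lay at dim levels where little can be read. Correlations between arrays lay between 0.987 and 0.996 over all probe sets. All 6 T cell markers lay above that median, as did all 5 Treg markers. Below it lay 0 of 2 CD8 T cell markers, 1 of 3 NK cell markers and 2 of 5 B cell markers measured. So did 4 of 6 myeloid markers and 2 of 2 erythroid markers measured, and no marker was listed at 0. Markers of several other cells thus also lay above the median, so it does not by itself show which cells were present.

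The E47 arrays were set against the control arrays of the same experiment to ask whether these genes responded to E47. None of the 32 member probe sets passed (limma paired by experiment, Benjamini-Hochberg over 45037 probe sets, threshold 0.05), where 0.271% of all probe sets did, 0.238% higher and 0.0333% lower. At an unadjusted p under 0.05 there were 14, of which 10 were higher and 4 lower in E47, and 9.06% of all probe sets met that limit, 4.33% higher and 4.74% lower. Those 14 are not independent, since 5 belong to Igfbp4, 3 to Bach2, 3 to Foxo1, 2 to Satb1 and 1 to Dapl1. The median log2 fold change was 0.09 over the 32 member sets, of which Foxp1 and Igfbp4 make up 14, and -0.02 over all probe sets. Over the brightest set of each of the 8 genes it was -0.0091.

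Foxo1, the forkhead factor that sustains homing and survival genes, had the 3 largest log2 fold changes among the 32 probe sets. Its brightest probe set, 1416983_s_at, read 9.74, 10.03 and 9.72 in E47 replicates 1 to 3 and 9.39, 9.34 and 8.87 in control replicates 1 to 3. Probe set 1416982_at read 8.82, 9.36 and 8.70 in E47 and 8.24, 8.41 and 8.10 in control. Probe set 1416981_at read 8.28, 8.80 and 8.40 in E47 and 8.04, 8.20 and 7.75 in control. In each of the 3 every E47 array lay above every control array, a separation seen upwards in 4.57% and downwards in 6.65% of all probe sets. No other member separated in either direction. The log2 fold changes were 0.63 (SE 0.12), 0.71 (SE 0.11) and 0.50 (SE 0.11), with 95% intervals of 0.34 to 0.92, 0.45 to 0.97 and 0.22 to 0.77. Their adjusted p values were 0.196, 0.111 and 0.289, so none passed. The remaining Foxo1 probe set, the dim 1456529_at, had a log2 fold change of -0.10 (SE 0.09). In experiment 2 the differences were 0.69, 0.95 and 0.60 and in experiment 3 they were 0.85, 0.60 and 0.66, while experiment 1 gave 0.35, 0.59 and 0.23. Without experiment 1 the first 2 of these probe sets passed (adjusted p = 0.0351 and 0.0482 in limma), while without experiment 2 or 3 the lowest adjusted p of any member was 0.594 and 0.544. The same 2 sets also passed with a trended, robust estimate of the variance (adjusted p = 0.0151 and 0.00633). Both settings called more of the 45037 probe sets, 551 without experiment 1 and 574 with the trended variance, against 122 in the main fit. Without experiment 2 or 3 fewer passed, 34 and 4 of all probe sets. Without experiment 1 only 2 pairs remain.

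Some markers of other cells and Thy1 also differed between the constructs. The summed Treg markers ran from 9874 to 11943 in E47 and from 12097 to 13546 in control. These sums barely parted, and each of the 5 markers on its own overlapped. Bright markers weigh most in such sums. Tnfrsf18 had a mean log2 level of 12.46 in E47 and 12.72 in control, and Foxp3 had 6.75 and 6.96. The sum is therefore not a measure of Foxp3 or of Treg number. The 6 myeloid markers measured summed to 185.0 to 205.8 in E47 and 205.9 to 218.1 in control, so that the sums barely parted. Cd14, Lyz2 and Csf1r had every E47 array below every control array (log2 fold changes -0.25, -0.20 and -0.15), as 6.65% of all probe sets did. Adgre1 was on average lower in E47 (-0.19), and Itgam and Cd68 were on average higher (0.11 and 0.10). Cd14, Lyz2, Itgam and Adgre1 lay below the median level. The 2 CD8 markers summed to 189 to 327 in E47 and 140 to 209 in control, which overlapped. Of these Cd8b1 had every E47 array above every control array, with 6.88, 7.51 and 6.95 in E47 and 6.69, 6.73 and 6.40 in control (log2 fold change 0.51, SE 0.13, adjusted p = 0.365). No marker of these 3 lists passed. Thy1, whose Thy1.1 form marks infected cells, read 12.73, 13.03 and 12.54 in E47 and 12.05, 12.19 and 11.59 in control (log2 fold change 0.82, SE 0.09, adjusted p = 0.0498). The part of these in the Foxo1 result was not tested. Cell number and RNA per cell cannot be told apart in such bulk samples.

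Foxo3, the relative of Foxo1, gave no separation of the groups. Its brightest probe set read 8.85, 8.93 and 9.01 in E47 and 9.21, 8.91 and 9.08 in control. The groups overlapped, and the log2 fold change of -0.14 had an interval of -0.40 to 0.12 (adjusted p = 0.727 in limma). Its other 2 sets gave 0.09 and -0.11 on the log2 scale. No test of the difference between Foxo1 and Foxo3 was made.

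Foxp1 gave no call in E47. Its brightest probe set read 10.60, 11.26 and 10.79 in E47 and 10.84, 11.19 and 10.69 in control, a log2 fold change of -0.02 with an interval of -0.28 to 0.23. The other 7 Foxp1 probe sets had log2 fold changes from -0.04 to 0.40, the highest in the variable set 1438802_at (SE 0.34). Its pairs gave -0.71, 0.84 and 1.07, and it passed without experiment 1 (adjusted p = 0.0198), where 551 of 45037 probe sets did.

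Lef1, the measured member of the TCF/LEF pair, gave intervals around 0. Its brightest probe set read 10.82, 11.00 and 10.75 in E47 and 10.92, 11.06 and 10.58 in control. The log2 fold change was 0.01, with an interval of -0.22 to 0.24, and the second probe set had -0.04, with an interval of -0.25 to 0.17. A missed threshold does not show equal levels, and log2 changes within these bounds are not resolved by 3 pairs.

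Satb1, the chromatin organiser, and Bach2, the repressor of effector genes, differed between the constructs by small amounts that did not pass. Satb1 1416008_at, its brightest probe set, read 10.57, 10.80 and 11.02 in E47 and 10.43, 10.60 and 10.72 in control, higher in E47 in every pair but overlapping between groups. Its log2 fold change was 0.21 (SE 0.08, adjusted p = 0.548 in limma), and Satb1 1416007_at and 1436182_at had 0.23 and 0.24. The other Satb1 sets were the dim 1439315_at (-0.10) and 1439449_at (0.41, SE 0.28). The pairs of 1439449_at gave -0.51, 0.91 and 0.83, and it passed without experiment 1 (adjusted p = 0.0221), where 551 of 45037 probe sets did. Bach2 1436515_at read 11.08, 11.06 and 11.48 in E47 and 11.45, 11.37 and 11.59 in control, lower in E47 in every pair. All 3 Bach2 probe sets had negative log2 fold changes, -0.27, -0.25 and -0.36, with adjusted p values of 0.494 to 0.548 in limma. Over all probe sets 17.9% were lower and 13.5% were higher in all 3 pairs, and among the 32 members 7 were lower and 12 higher.

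Dapl1 and Igfbp4, the 2 members that mark naive cells rather than regulate transcription, had the widest spread over arrays among the brightest sets of the 8 genes. Dapl1, a small protein related to the death-associated protein DAP, read 8.19, 6.53 and 8.78 in E47 and 8.80, 7.12 and 8.89 in control. The pair differences were -0.61, -0.59 and -0.11, all lower in E47. Their mean on the log2 scale was -0.44 with SE 0.13, and limma gave an adjusted p = 0.424. Igfbp4, a secreted protein that binds insulin-like growth factors, read 10.55, 11.52 and 9.82 in E47 and 10.24, 11.18 and 9.40 in control in its brightest probe set. In Igfbp4 the pair differences were 0.31, 0.34 and 0.42, with a mean of 0.36 on the log2 scale, SE 0.08 and an adjusted p = 0.296. All 6 Igfbp4 probe sets were higher in E47 in all 3 pairs, with log2 fold changes of 0.14 to 0.40. With the trended, robust variance Igfbp4 1437405_a_at and 1437406_x_at passed (adjusted p = 0.0221 and 0.0239), where 574 of 45037 probe sets did. In both genes the groups overlapped, and the experiments lay further apart than the constructs.

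**Figure D1:**
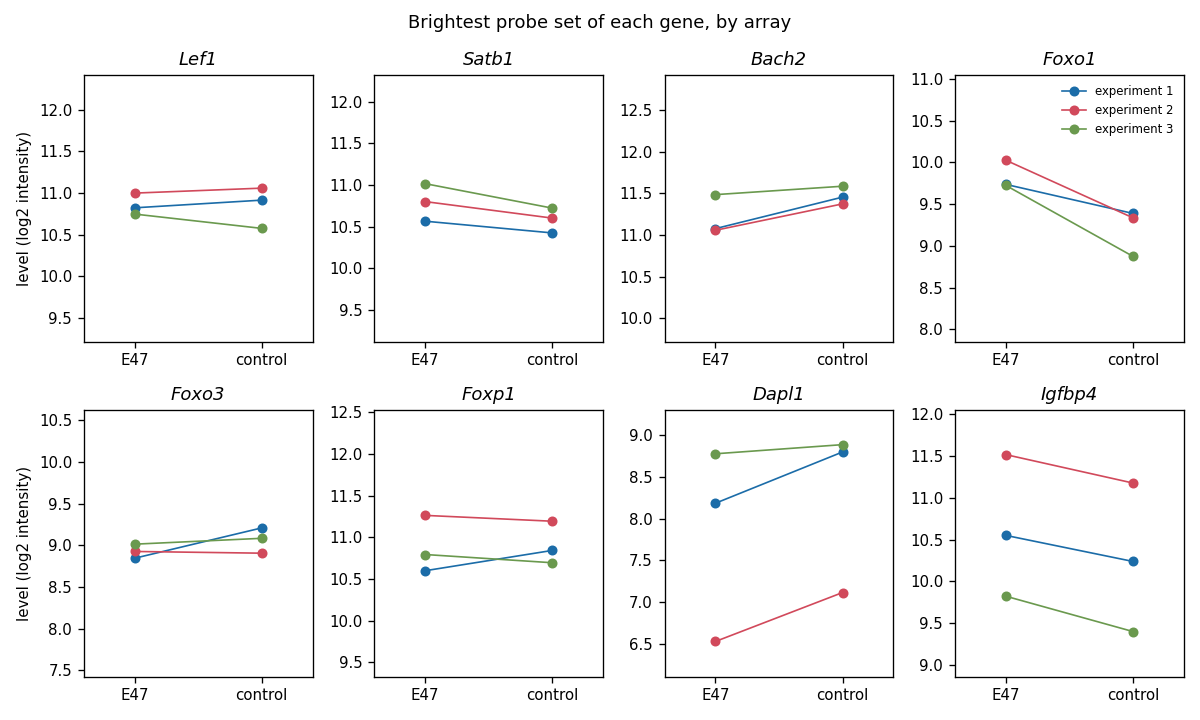
Log2 intensity of the brightest probe set of each of the 8 measured genes, E47 left and control right in each panel, with 1 line per experiment and each vertical axis spanning at least 3.2 log2 units. The 3 Foxo1 lines slope down towards control, while the lines of Dapl1 and Igfbp4 run apart by experiment, with experiment 2 lowest for Dapl1 (6.53 and 7.12) and highest for Igfbp4 (11.52 and 11.18).

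**Figure D2:**
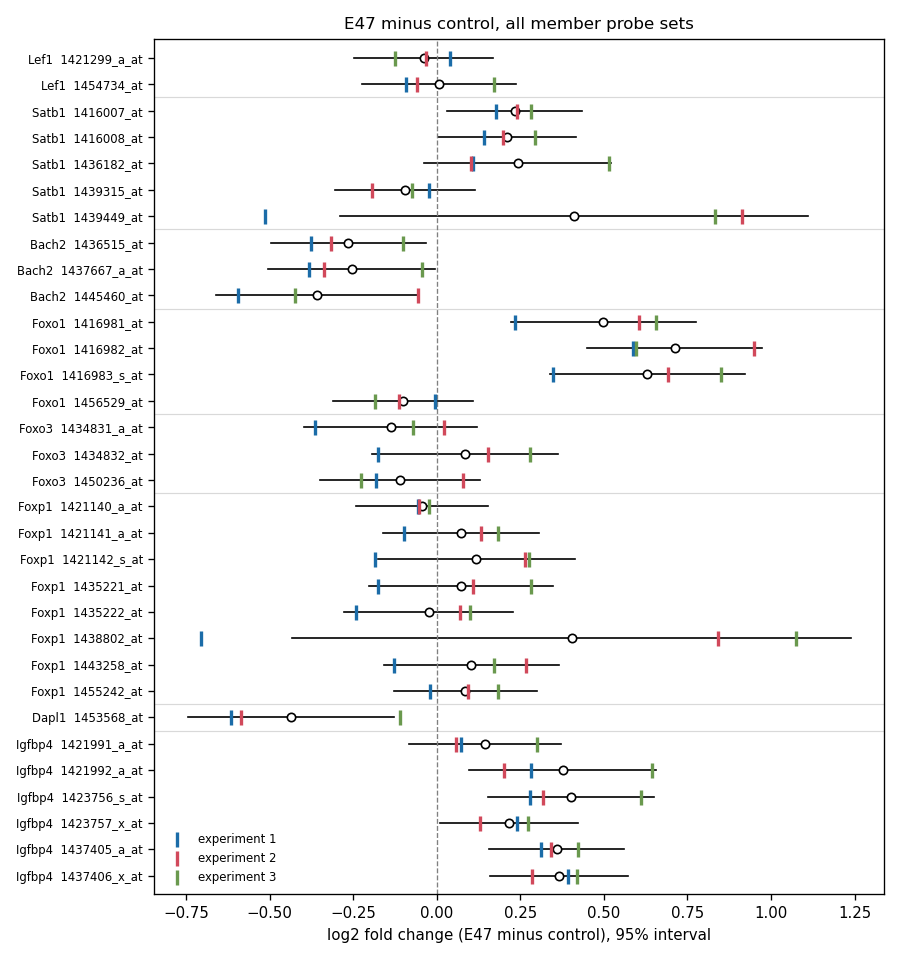
Log2 fold change (E47 minus control) of all 32 member probe sets, with 95% intervals from limma as lines and the 3 pair differences as coloured ticks; all circles are open because no probe set passed. The 3 brighter Foxo1 probe sets lie furthest right of 0 with intervals clear of it (0.50 to 0.71), and Dapl1 (-0.44) lies furthest left.

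Levels were then compared across the 3 experiments, with the construct as a term. Each experiment is 1 pool of mice with 1 array per construct. The p-values here therefore measure the spread left within experiments, not that between pools. By the F test of the experiment, 5 of the 32 member probe sets differed, Dapl1 and 4 of the 6 of Igfbp4, against 0.604% of all probe sets. Because earlier results of these data had shown experiment 2 apart, it was also set against the mean of experiments 1 and 3. In that contrast, which 1.49% of all probe sets passed, 5 member probe sets were higher in experiment 2, all of them Igfbp4, against 0.835% of all probe sets, and 1 was lower, Dapl1, against 0.655%.

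Dapl1 fell in experiment 2. Its arrays there read 6.53 in E47 and 7.12 in control, against 8.19 and 8.80 in experiment 1 and 8.78 and 8.89 in experiment 3. The log2 difference was -1.84 (SE 0.13, 95% interval -2.17 to -1.51, adjusted p = 0.00719 in limma), a level 3.58-fold lower in experiment 2. Each single comparison passed, -1.67 against experiment 1 (adjusted p = 0.0238, 0.555% of all probe sets called) and -2.01 against experiment 3 (adjusted p = 0.00938, 1.06% called). Experiment 3 minus experiment 1 was 0.34 (adjusted p = 0.726), a contrast that called 0.00222% of all probe sets.

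Igfbp4 rose in experiment 2, opposite to Dapl1. Its brightest probe set read 11.52 in E47 and 11.18 in control there, against 10.55 and 10.24 in experiment 1 and 9.82 and 9.40 in experiment 3. The log2 difference was 1.35 (SE 0.09, 95% interval 1.13 to 1.56, adjusted p = 0.00635 in limma), a 2.54-fold higher level. Differences over the 6 probe sets ran from 0.56 to 1.55, and the dimmest, 1421991_a_at, was the one that did not pass (adjusted p = 0.0678). In 3 of these sets the name carries the suffix _s_at or _x_at, which Affymetrix gives to probes that can match other transcripts. The same limit holds for the brightest Foxo1 set, 1416983_s_at, and for Foxp1 1421142_s_at. Experiment 3 also lay below experiment 1 (-0.78 in the brightest set), but that difference did not pass (adjusted p = 0.414). For neither gene did the call hold without any 1 of the 4 arrays of experiments 2 and 3. The adjusted p of Dapl1 was 0.0536 without E47 replicate 3, 0.0538 without control replicate 3, 0.0736 without control replicate 2 and 0.128 without E47 replicate 2. For the brightest Igfbp4 set these were 0.0624, 0.0688, 0.0782 and 0.113, and the differences themselves stayed between -1.96 and -1.72 for Dapl1 and between 1.32 and 1.37 for Igfbp4.

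The transcription factors varied less. Foxp1 was higher in experiment 2 in 6 of its 8 probe sets on both arrays than on any other array, where 9.93% of all probe sets were. Its brightest set had a log2 difference of 0.50 (SE 0.11, adjusted p = 0.115 in limma), and no Foxp1 set passed (lowest adjusted p = 0.0785). That depended on the processing. With bright sets alone 2 of 7 Foxp1 sets passed (lowest adjusted p = 0.0375), with 16 added to each intensity 2 of 8 (0.0301), without control replicate 1 3 of 8 (0.008) and with the trended, robust variance 5 of 8 (0.00442). With 1 probe set per gene the brightest passed (adjusted p = 0.0498). These settings also called more probe sets in all. The F test between experiments called 272 of 45037 in the main fit and 609 of 22518 bright sets. It called 384 with 16 added, 582 of 18193 with 1 set per gene and 1813 with the trended, robust variance. It also called more without control replicate 1. The shares for the experiment 2 contrast in these settings are not given here. Lef1 also had both arrays of experiment 2 above the rest in its 2 probe sets, with differences of 0.26 and 0.29 (adjusted p = 0.316 and 0.236). In the same contrast the brightest sets of Foxo1 (0.25), Satb1 (0.02), Foxo3 (-0.12) and Bach2 (-0.19) did not pass either. Among their other sets, Foxo1 1416982_at passed with the trended, robust variance (0.42, adjusted p = 0.0445) and Satb1 1439449_at without control replicate 1 (0.91, adjusted p = 0.01). Satb1 sets 1416007_at, 1416008_at and 1436182_at had their lowest mean in experiment 1, which this contrast does not show. Set 1416007_at averaged 10.02, 10.45 and 10.57 in experiments 1 to 3 (F test, adjusted p = 0.150). The dim 1439315_at (3.31, 3.20 and 3.12) and 1439449_at (5.20, 5.56 and 4.79) were lowest in experiment 3. No Satb1 set passed the F test in the main fit. With the trended, robust variance 2 of 5 Satb1 sets passed the F test (lowest adjusted p = 0.00765), where 1813 of 45037 probe sets did. The median log2 difference of experiment 2 was 0.29 over the 32 member sets, 0.13 over the 8 brightest sets and near 0 over all probe sets.

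Some markers of other cells also differed in experiment 2. The 3 NK cell markers summed to 411 and 523 in intensity in its arrays, against 174 to 224 in the other 4, with Klrd1 past the threshold and Ncr1, the defining one, below the median level. The 2 CD8 T cell markers summed to 209 and 327 there, against 140 to 192 elsewhere, and Cd8a passed. The 5 B cell markers measured summed to 185 and 203, against 151 to 173, with 0 past the threshold and Cd79a and Ms4a1 below the median level. Foxp3, the Treg lineage factor, was 3.28-fold higher in experiment 2 (adjusted p = 0.00539 in limma). The other 4 Treg markers did not pass, with log2 differences of -0.36 for Ctla4, -0.29 for Tnfrsf18, 0.02 for Ikzf2 and 0.12 for Il2ra, and the 5 summed to 9874 and 12097 in experiment 2, against 11856 to 13546 elsewhere. The part of these in the Dapl1 and Igfbp4 differences was not tested.

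**Figure D3:**
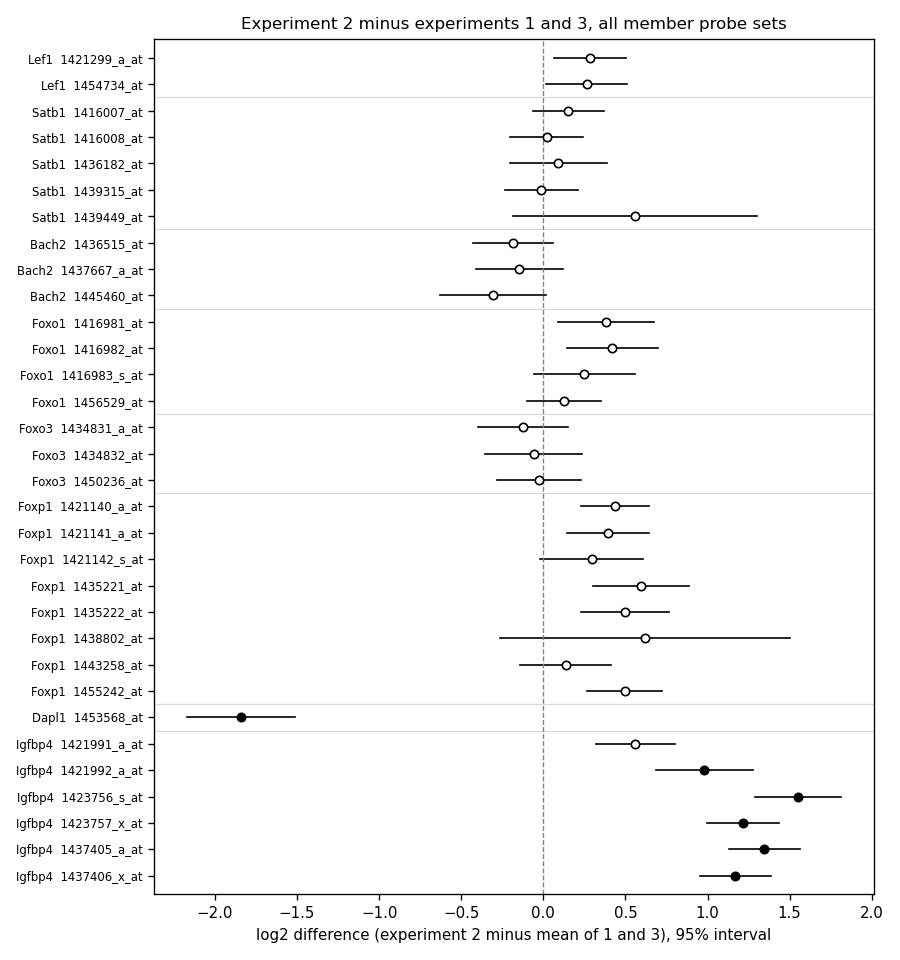
Log2 difference of experiment 2 minus the mean of experiments 1 and 3 for all 32 member probe sets, with 95% intervals from limma; filled circles passed the adjusted threshold of 0.05. The Dapl1 set (-1.84) and 5 Igfbp4 sets (0.98 to 1.55) are filled, and every Foxp1 set lies right of 0 without passing.

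The genes around these factors were taken from 9 lists, read by the brightest probe set of each gene. The counts below are of genes with a probe set of their own. The lists were chosen with earlier results of these data known, so their counts are descriptions and not tests of the lists. Among all 18193 genes 0.368% were higher and 0.0715% lower in E47. Of 17 FOXO target genes 1 rose in E47, Bcl2l11, the gene of Bim, a trigger of cell death (log2 fold change 2.11, SE 0.13, adjusted p = 0.00526 in limma), and 0 fell. It read 10.01, 10.79 and 9.70 in E47 and 8.13, 8.35 and 7.69 in control, with every E47 array above every control array. Klf2, a Krüppel-like factor that holds T cells quiescent, had 0.79 (adjusted p = 0.288), and Il7r, the IL-7 receptor chain, had 0.61 (adjusted p = 0.281). The median of this list was -0.07, against -0.03 over all genes. Of 18 other quiescence regulators 1 rose, Klf4 (1.56, SE 0.10, adjusted p = 0.00673), and 0 fell. It read 7.92, 8.42 and 8.15 in E47 and 6.55, 6.69 and 6.56 in control. Klf6, another Krüppel-like factor (-0.39), and Slfn2, a gene needed for T cell quiescence in mice (-0.37), did not pass. In the list of IGF binding proteins 1 of 11 rose, Igf1r, the receptor for IGF-1 (1.04, SE 0.11, adjusted p = 0.0354), while Igfbp7 (-0.47, adjusted p = 0.26) did not pass. Igf1r read 8.25, 9.03 and 9.01 in E47 and 7.44, 7.82 and 7.92 in control. Without experiment 1 all 3 calls held. Without experiment 2 Bcl2l11 held (adjusted p = 0.0321 in limma) while Klf4 (0.0712) and Igf1r (0.259) did not, and without experiment 3 none did (0.145 to 0.421). Of all 45037 probe sets 551 passed without experiment 1, but 34 without experiment 2 and 4 without experiment 3.

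In the other 6 lists none passed in either direction in E47. This was 0 of 16 in the TCF/LEF family with Wnt partners, where Tle3 (0.21) and Tle1 (0.16) had the lowest p, and 0 of 7 in the FOXO and FOXP family. It was also 0 of 11 in the PI3K and AKT pathway, with Sgk1 at 0.66 (adjusted p = 0.116) and Pik3r1 at -0.26 (adjusted p = 0.479). Among other naive markers it was 0 of 12, with Cd27 at 0.43 and Il7r as above, and in the BACH and MAF list 0 of 10, with Bach1 at 0.25. Of 13 activation genes 0 passed, Cd69 having 0.46 and Tnfrsf4 -0.44.

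Between experiments, 1.28% of all genes were higher and 1.04% lower in experiment 2 than in experiments 1 and 3. Both the lists and this contrast were chosen with earlier results of these data known. List counts beside these shares therefore only describe. Of the 17 FOXO targets 4 were higher, Klf2 (log2 difference 1.99, adjusted p = 0.0147 in limma), Sesn1 (0.87, adjusted p = 0.0198), Sesn3 (0.63, adjusted p = 0.0436) and Bcl6 (0.88, adjusted p = 0.048), and 0 lower. Their median was 0.51, against -0.01 over all genes. Sesn1 and Sesn3 encode sestrins, which restrain mTOR signalling. Of the 12 other naive markers 3 were higher, the integrin chain Itga6 (2.14, adjusted p = 0.00442), the costimulatory receptor Cd27 (0.96, adjusted p = 0.0205) and Treml2 (0.91, adjusted p = 0.0163), and 0 lower. Sgk1, a kinase of the AKT type that also phosphorylates FOXO proteins, was 5.28-fold higher (adjusted p = 0.00442), the 1 of 11 PI3K and AKT genes that passed. In the forkhead list Foxo4 (0.90, adjusted p = 0.0277) and Foxp3 were higher, 2 of 7. Ets1 (0.73, adjusted p = 0.0246) was the 1 of 18 quiescence regulators and Bach1 (0.76, adjusted p = 0.0332) the 1 of 10 in the BACH and MAF list, and 0 of either were lower. In the IGF list Igfbp4 itself was higher and Igfbp7 lower (-0.81, adjusted p = 0.0344). Batf, a factor of activated T cells, was lower (-0.70, adjusted p = 0.0304), the 1 of 13 activation genes that passed, and the TCF/LEF list had 0 of 16. All 15 list genes called in this contrast, Igfbp4 among them, passed without either array of experiment 1. Without E47 replicate 2, E47 replicate 3, control replicate 2 or control replicate 3 none of them did. Almost none of the 45037 probe sets passed the F test between experiments in those settings either.

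**Figure D4:**
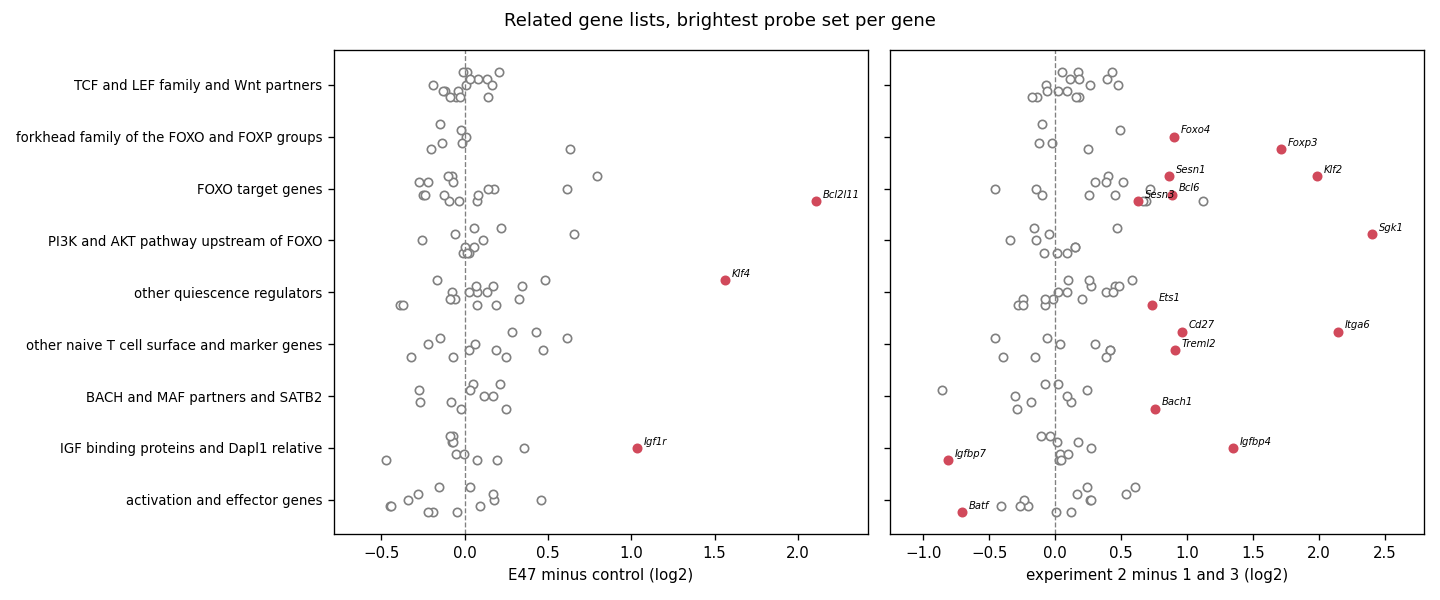
Log2 differences of the genes in the 9 related lists, 1 circle per gene, E47 minus control at left and experiment 2 minus experiments 1 and 3 at right; red circles with names passed the adjusted threshold of 0.05. At left the red circles are Bcl2l11, Klf4 and Igf1r, and at right most lie above 0, with Sgk1 (2.40) the furthest.

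Genes whose levels ran most like these were sought for the 3 genes whose brightest set spans at least 1 log2 unit over the 6 arrays, by the root-mean-square difference of mean-centred log2 values among 11339 other genes above the median level. For Igfbp4 the nearest were 5830468F06Rik, Cnp and Bcl2, at 0.13, 0.15 and 0.15 log2 units. For Dapl1 they were Slc35d3, Tnfrsf13c and Rhbdf1, at 0.12, 0.21 and 0.24, all lower in experiment 2 (-1.95, -1.48 and -1.51). For Foxo1 they were Ly6d, Trbv13-2 and Selplg, at 0.06, 0.07 and 0.09, none of which passed in E47 (log2 fold changes 0.60, 0.55 and 0.56). All of these genes were chosen for likeness over the same 6 arrays. Their differences therefore follow from the choice and add no support.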

How the data were processed

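RNA of 6 samples was measured on Affymetrix mouse arrays with biotin-labelled total RNA. The authors deposited linear intensity values, made with RMA (version not given) per the submitters' processing notes. RMA equalises the arrays' distributions, so shifts shared by most genes cannot be seen. Groups, replicate numbers and experiments came from the titles and the design text. The 64 Affymetrix control probe sets were left out, which left 45037, of which 34945 had 1 gene symbol, 932 had several and 9160 were not listed in the platform annotation. Log2 was taken, with no offset and no filter. Main tests used limma 3.58.1 in R 4.3.3 (lmFit, eBayes, two-sided, Benjamini-Hochberg over all probe sets, threshold 0.05), with the construct and the experiment as terms. The experiment was kept as a block because the design text gives 3 independent experiments of 1 pair each. Deviations of same-numbered arrays correlated at 0.09, 0.52 and 0.31, while E47 replicate 1 correlated at 0.22 with control replicate 3, so the arrays do not bear out a pairing for number 1, and the block was taken from the stated design alone. P-values for E47 measure the spread between the 3 pairs. Each experiment is 1 pool of mice, so p-values between experiments measure the spread left within experiments. They do not measure the spread between pools of mice. Intervals are 95% intervals from the moderated t distribution and are not adjusted. The fits were checked on simulated data. Named genes were all members, every list gene that passed in E47, up to 2 per list that did not (lowest p), up to 4 per list that passed between experiments, and the 3 nearest profiles. The members and lists were chosen with earlier results of these data known. The number of arrays limits the precision.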

Additional observations from a re-analysis of the deposited data

How the results depend on the processing

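No member passed in E47 in 10 of the 12 alternatives that refit this comparison, and 4 did under a trended, robust variance (2 of Foxo1 and 2 of Igfbp4). Leaving out 1 experiment gave 0 to 4 member calls, the 4 without replicate 1 being 2 of Foxo1 and 1 each of Foxp1 and Satb1. The lowest adjusted p of a member was 0.111 with the replicate block and 0.563 without it, so the pairing changed no member's call. Over all probe sets, 122 passed with the block (107 higher, 15 lower) and 52 without it (52 higher, 0 lower). There were 208 with 1 probe set per gene, 201 with the mean of a gene's sets, 574 with the trended variance and 4 to 551 with 1 experiment left out. Between experiments, 272 probe sets passed. There were 609 among bright sets alone, 582 with 1 set per gene, 1813 with the trended variance and 90 without the construct term, where the member calls were 6, 2, 13 and 1 in place of 5. With 1 array left out, an alternative chosen after seeing the data (as were the repeats of the list genes' calls with an experiment or array left out), 0 to 999 sets and 0 to 8 member sets passed, and the losses came without an array of experiment 2 or 3. Among the brightest sets of the 8 genes, directions turned only for values near 0 that did not pass in that setting. For E47 these were Foxp1 (0.10 with the mean of its sets, -0.0867 to 0.0843 with 1 experiment left out) and Lef1 (-0.0163 with the mean, -0.0758 to 0.0561 with 1 experiment left out). For experiment 2 this was Satb1 (-0.0058 with median centring, -0.0116 to 0.0506 with 1 array left out). Sets other than the brightest also turned near 0, such as Foxo3 1434832_at (-0.0115 for E47 without replicate 3). Dim probe sets and 3 pairs limit what could be seen.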
